A study of Mus musculus with 6 samples.

Results

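The comparison set the small RNAs of fetal mouse testis lacking Dnmt3L beside those of wild-type (WT) fetal testis at 16.5 days post coitum (dpc). It used 2 of the 6 libraries of the series, 1 from the knockout (KO) and 1 from the WT, chosen by their labels for genotype and age. Both came from whole testes of C57BL/6 fetuses. The controls were littermates, and each genotype was represented by 1 pool of 7 or 8 mice. RNA of 18 to 35 nt was made into libraries with the Illumina TruSeq small RNA kit. The WT library held 42370622 reads and the KO library 47232494. Levels are reads per 1000000 of the library (RPM), so a level is a share of the library and not an amount per cell. In such bulk RNA, fewer cells of a type and less RNA per cell cannot be told apart. With 1 library a group no spread between animals can be estimated and no test was run. The 95% intervals given with ratios cover counting error only.

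Dnmt3L is a cofactor without catalytic activity of its own that supports the de novo DNA methyltransferases. In fetal male germ cells it is needed for the methylation of transposons and imprinted loci. PIWI-interacting RNAs (piRNAs) are the guides of the methylation of transposons. They are longer than microRNAs (miRNAs), usually begin with U, and are cut from long single-stranded precursors or from transposon transcripts. Secondary piRNAs are made when a piRNA directs the cleavage of an opposite-strand transcript (the ping-pong cycle), which leaves an overlap of 10 nt between partners and an A at position 10 of the new piRNA. miRNAs are cut in pairs from short hairpins, and their bases 2 to 8, the seed, select target mRNAs.

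Some of the miRNAs whose genes or arms led the differences are shown first, because families that share a seed can be seen in the letters. They are RefSeq mature sequences (GRCm38.p6), written 5′ to 3′ with the seed in capitals. The first 6 were more abundant in the KO.
miR-410-3p: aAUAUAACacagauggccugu
miR-323-3p: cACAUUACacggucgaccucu
miR-674-3p: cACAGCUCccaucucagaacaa
miR-34b-3p: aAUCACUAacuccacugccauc
miR-34c-3p: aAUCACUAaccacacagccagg
miR-202-3p: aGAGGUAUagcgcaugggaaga
The other 5 were less abundant in the KO.
miR-19a-3p: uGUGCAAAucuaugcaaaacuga
miR-19b-3p: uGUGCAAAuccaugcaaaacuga
miR-881-3p: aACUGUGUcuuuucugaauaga
miR-146a-5p: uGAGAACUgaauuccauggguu
miR-218-5p: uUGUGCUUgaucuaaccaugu
miR-34b-3p and miR-34c-3p share the seed AUCACUA, and miR-19a-3p and miR-19b-3p share GUGCAAA. Not printed are miR-5126, miR-184-3p and miR-379-5p, with log2 ratios of -2.73, -2.56 and -2.42. These are lower than that of miR-218-5p (-2.39).

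The piRNA-size reads that illustrate the comparison are shown as they stand in the deposited files. Positions 1 and 10 are in capitals. Each was found in a single annotated gene, and gene positions are on GRCm38.
Dnmt3l, sense (chr10:78041947-78063622, plus strand): TaagaccctTgaaaccttggacctggag
Gm47906, antisense (chr14:24833635-24835089, plus strand): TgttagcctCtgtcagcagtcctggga
D10Wsu102e, sense (chr10:83360221-83488505, plus strand): TgaatctgcAaaaatgcgctctgctgcct
Gm43197, antisense (chr6:3336772-3339354, minus strand): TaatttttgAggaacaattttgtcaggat
Eif4ebp2, sense (chr10:61428491-61452661, minus strand): TgagacgtgGgcactgagcagggaac
Adam12, sense (chr7:133883199-134232146, minus strand): TgagaaagtCcagtcggtcaagagcct

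Dnmt3l, the deleted gene, had few small RNA reads. Its sense reads of 24 to 32 nt numbered 104 in the WT and 287 in the KO (2.45 and 6.08 RPM, 2.48-fold, interval 1.97 to 3.13). A single 28-nt read starting with U, from the coding part and printed above, made up most of the excess, with 5 WT reads and 134 KO reads. Where these short reads lie relative to the deleted part of the gene is not known, so they check nothing about the genotype. The tissue label was looked at through markers. Mir202, a miRNA of Sertoli cells, stood at 30.3 RPM in the WT and 54.2 RPM in the KO. The Mir290 and Mir302 clusters, miRNAs of pluripotent and early germ cells, summed to 276 and 258 RPM.

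Both libraries had maxima at the same lengths, while the KO was higher at 18 nt, lower from 19 to 22 nt and higher at 23 and 24 nt. Reads of 18 to 35 nt made up 878022 and 870104 RPM. Reads of 22 nt, the usual miRNA length, were 180058 RPM in the WT and 118935 RPM in the KO (0.661-fold). Reads of 20 nt were 24346 and 18300 RPM (0.752-fold), and reads of 21 nt 50706 and 38586 RPM (0.761-fold). Reads of 23 nt were 91296 and 109875 RPM (1.20-fold), and reads of 24 nt 87267 and 103831 RPM (1.19-fold). From 25 to 31 nt, where most piRNAs lie, every length was between 1.01 and 1.13 times its WT level. Both libraries had further maxima at 27 and 34 nt. The level at 27 nt was 67876 RPM in the WT and 71179 RPM in the KO. The plot of reads by length shows these maxima.

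**Figure D1:**
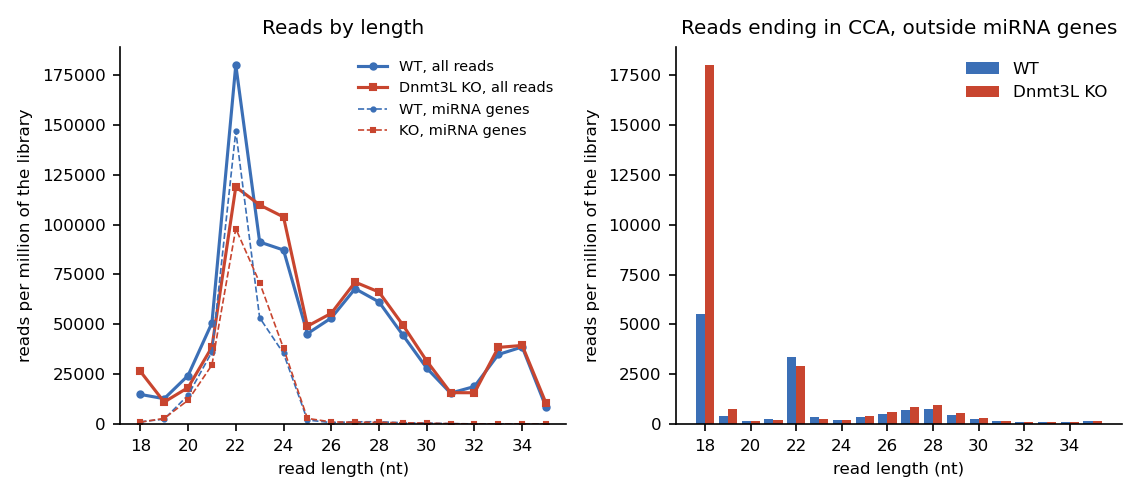
Left, RPM at each read length in nt for all reads (solid lines) and reads of miRNA genes (dashed lines) in the WT and Dnmt3L KO libraries of 16.5 dpc; right, RPM of reads that end in CCA and lie outside miRNA genes (bars, 1 library each). The KO lies below the WT at 22 nt (118935 against 180058 RPM) and above it at 23 and 24 nt, and its 18-nt reads ending in CCA reach 18023 RPM against 5531 RPM.

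Reads of 18 nt went against the neighbouring lengths, with 14875 RPM in the WT and 26447 RPM in the KO. The excess lay in reads that end in CCA, the trinucleotide that closes every mature tRNA. Outside miRNA genes, 18-nt reads ending in CCA were 5531 RPM in the WT and 18023 RPM in the KO (3.26-fold, interval 3.24 to 3.27). All other 18-nt reads outside miRNA genes were 8217 and 7444 RPM. Of 58 such CCA-ending sequences with at least 500 reads over both libraries, 55 were higher in the KO, and the 4 most abundant made up 74.8% of the KO's reads of this kind. At 22 nt, the other length at which CCA ends were frequent, they were 3346 RPM in the WT and 2916 RPM in the KO. Both WT libraries of 10 days post partum (dpp) had 2369 and 6469 RPM of the 18-nt kind, so the KO lay above all 3 WT libraries. No tRNA sequences were used here, and the ending alone does not name a tRNA.

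A ratio was called only where its log2 size passed a limit. The limit is the log2 size that 95% of features with the same minimum of reads stayed under when 1 WT library of 10 dpp was set against the other (the Dnmt3L and the Miwi2 line, 3 mice a pool). Those libraries differ more from each other than the fetal pair does. Of piRNA-size sequences with at least 500 reads over the compared libraries, 40.04% lay within a log2 ratio of 1 between them, and 72.1% between fetal KO and WT. The limit is therefore wide. It is 2.29 for miRNA genes, 3.53 for other small RNA genes, 2.02 for sense and 4.78 for antisense reads of transcripts, the last resting on 59 transcripts. Libraries of 10 dpp enter below only through this limit or as background levels.

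Reads of miRNA genes were 296563 RPM in the WT and 259509 RPM in the KO (0.875-fold). Of 294 genes with at least 1000 reads, 2 passed the limit as higher in the KO (0.68%) and 7 as lower (2.38%), and the median log2 ratio was -0.34. With edgeR's TMM scaling the median was -0.10, and 5 were higher and 7 lower. With a fixed limit of log2 2, 4 were higher (1.36%) and 12 lower (4.08%). With scaling to the reads of miRNA genes the limit was 2.65 and 1 was higher, Mir410.

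Mir410 and Mir323, the genes called higher, both lie in the imprinted Dlk1-Dio3 cluster of chromosome 12, whose miRNAs are expressed from the maternal chromosome. Mir410 (chr12:109743715-109743795) had 238 RPM in the WT and 2108 RPM in the KO (log2 ratio 3.15, 8.87-fold, interval 8.69 to 9.05). Mir323 (chr12:109712508-109712593) had 5.66 and 29.4 RPM (log2 ratio 2.37). Counted over distinct sequences in place of reads, the log2 ratios were 0.07 and 0.31, within the limit. Both WT libraries of 10 dpp had 1272 and 1824 RPM of Mir410 and 7.22 and 16.3 RPM of Mir323. The cluster as a whole did not move with them. Of its 31 genes with the minimum of reads, 17 were above and 14 below a ratio of 1, the median log2 ratio was 0.02 against -0.34 over all miRNA genes, and the sum was 37375 RPM in the WT and 33421 RPM in the KO. The lowest ratios of the cluster were those of Mir382 and Mir433: Mir382 had 20.6 and 6.37 RPM and Mir433 376 and 136 RPM. Its most abundant gene, Mir127, had 25694 and 16538 RPM. These levels and the cluster sum count exact reads only. With tailed reads counted, the arm miR-127-3p had 37013 RPM in the WT and 32214 RPM in the KO (0.870-fold). Its tailed reads alone were 4353 RPM higher in the KO, so the direction of the cluster sum may depend on tails.

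The 7 genes called lower were led by the Mir19 family. Over distinct sequences, with a limit of 1.33, 6 of these 7 calls ended: the log2 ratios were -0.61 for Mir19a, -0.87 for Mir19b-1, -0.65 for Mir19b-2, -0.54 for Mir146, -0.85 for Mir218-2 and -0.97 for Mir881. Mir5126 stayed past the limit with -1.39. Mir19b-1 had 63.9 RPM in the WT and 8.98 RPM in the KO, Mir19b-2 64.5 and 9.19 RPM, and Mir19a 20.4 and 3.07 RPM (log2 ratios -2.83, -2.81 and -2.73). Both copies of Mir19b give the same mature miRNA, and only 0.543% of the reads of Mir19b-1 were found in no other gene, so these 2 genes are 1 measurement. Mir19a and Mir19b-1 are processed from the same Mir17 cluster transcript, which promotes proliferation. The other genes of the Mir17, Mir106a and Mir106b clusters with the minimum of reads were closer to the WT. Mir17 had 45.3 and 42.4 RPM of exact reads. With tailed reads counted, its 5p arm had 17.7 RPM in the WT and 25.8 RPM in the KO, and its 3p arm 37.7 and 30.1 RPM. Mir92-1 had 9958 and 7948 RPM of exact reads, but with tailed reads counted its arm miR-92a-3p had 38501 RPM in the WT and 49229 RPM in the KO (1.28-fold), so the direction depends on the tails. In exact reads, all 9 tested genes of these clusters were below a ratio of 1, as were 190 of all 294 miRNA genes. Their median log2 ratio was -0.49, against -0.34 over all miRNA genes. The 3 genes past the limit, against 2.38% of all, are the Mir19 genes and hold 2 measurements.

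The 4 remaining genes called lower come from separate loci. Mir881, an X-linked testis miRNA, had 51.3 RPM in the WT and 7.26 RPM in the KO. Mir146, a miRNA induced by inflammatory signals, had 81.5 and 13.6 RPM. Both WT libraries of 10 dpp had 193 and 16.6 RPM of Mir146, a wider gap than that between the fetal libraries. Mir218-2, from an intron of Slit3, had 55.5 and 9.50 RPM, with 0.571% of its reads found in no other gene. Mir218-1, the other Mir218 gene, had 59.8 and 14.6 RPM (log2 ratio -2.03), within the limit. With tailed reads counted, the mature arm miR-218-5p had 144 and 27.5 RPM (log2 ratio -2.39). Mir5126 had 32.5 and 4.98 RPM, and 0.998 and 1.84 RPM in both WT libraries of 10 dpp. Those libraries had 337 and 496 RPM of Mir881, 17.4 and 19.4 RPM of Mir218-2, 13.9 and 11.1 RPM of Mir19a and 51.1 and 48.8 RPM of Mir19b-1. The other X-linked testis genes did not follow Mir881 as a group: Mir470 had 1649 and 1030 RPM and Mir871 1358 and 1395 RPM. Of the 8 tested genes, Mir881 among them, 4 were above a ratio of 1 and 4 below, and the median log2 ratio was -0.10. With tailed reads counted, the arm miR-465c-5p had 74.8 RPM in the WT and 21.3 RPM in the KO, and miR-465a-3p 129 and 211 RPM.

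**Figure D2:**
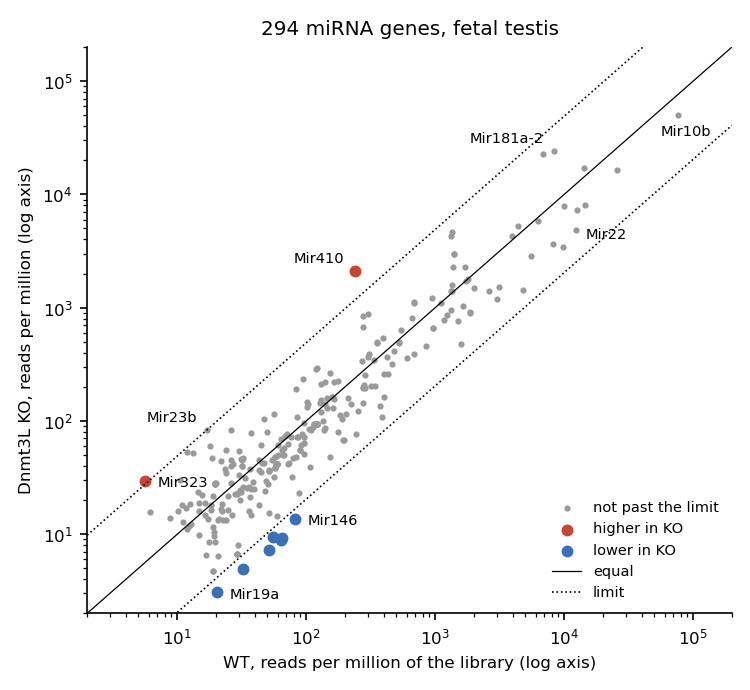
RPM of 294 miRNA genes in the WT (x axis, log) and the Dnmt3L KO (y axis, log) at 16.5 dpc, 1 point a gene and 1 library a group; the solid line marks equal levels and the dotted lines the limit of 2.29 (log2). Mir410 and Mir323 lie above the upper dotted line, and the 7 genes called lower, at 20.4 to 81.5 RPM in the WT, lie below the lower one.

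The most abundant miRNA genes stayed within the limit. Mir10b, a miRNA of the Hox clusters, led both libraries with 76265 RPM in the WT and 50193 RPM in the KO. Mir181a-2 and Mir181a-1, which give the same mature miRNA, had 8287 and 6901 RPM in the WT and 24188 and 22840 RPM in the KO. Mir125a had 14191 and 17134 RPM, Mir351 14427 and 8138 RPM, and Mir423 12596 and 7232 RPM. Among the 6 highest ratios were also Mir23b (17.0 and 82.5 RPM, log2 ratio 2.28), Mir34b (11.9 and 53.3 RPM), Mir674 (13.2 and 51.6 RPM) and Mir434 (1340 and 4622 RPM), none of them past the limit.

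The larger miRNA families were divided. In the let-7 family, the miRNAs that mark differentiated cells, 6 of 12 genes were above a ratio of 1 and 6 below, the median log2 ratio was 0.09 and the sum was 6113 RPM in the WT and 5786 RPM in the KO. Mirlet7b had 95.2 and 237 RPM, while Mirlet7g had 386 and 108 RPM and Mirlet7i 1597 and 482 RPM. In the Mir23, Mir24 and Mir27 clusters, 4 of 6 genes were above 1, with Mir27b at 1376 and 2270 RPM and Mir24-2 at 38.5 and 29.0 RPM. Of the Mir10, Mir99, Mir100 and Mir125 families, 6 of 8 were above 1, while Mir10a had 8241 and 3661 RPM. No gene of these 3 groups was past the limit.

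Markers of other cells of the testis gave no call, and their sums differed in size. The miRNAs of peritubular cells and fibroblasts summed to 13299 RPM in the WT and 6088 RPM in the KO, of which Mir143, a smooth-muscle miRNA, held 9835 and 3418 RPM. In the same list Mir214 was higher in the KO, with 276 and 676 RPM, and 5 of 7 genes were below 1. Erythroid miRNAs summed to 1895 and 933 RPM, mostly Mir486, and the endothelial miRNA Mir126a had 287 and 197 RPM. Haematopoietic miRNAs summed to 37.0 and 50.9 RPM, epithelial ones to 104 and 78.4 RPM, muscle miRNAs to 18.5 and 16.9 RPM, and neural ones to 9.68 and 1.21 RPM. The last 2 lists had no gene with the minimum of reads. Of the Mir290 and Mir302 clusters, 4 genes had the minimum, from Mir295 (96.2 and 51.6 RPM) to Mir292 (101 and 147 RPM). The part of cell composition in the miRNA ratios was not tested.

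The arms of a hairpin often had unlike ratios. Reads were assigned to 5p and 3p mature arms, allowing up to 3 added bases at the 3′ end, and 73 hairpins had at least 200 reads in each arm over both fetal libraries. In 41 of them the ratios of the arms lay on opposite sides of 1, and in 36 the arms were more than a log2 ratio of 1 apart. In 26 of those the 3p arm had the higher ratio and in 10 the 5p arm. The median distance between arms was 0.99 on the log2 scale. Between both WT libraries of 10 dpp it was 0.89 over 63 of these hairpins, with 28 more than 1 apart, so arms also differ between WT libraries.

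In several genes named above 1 arm had the high ratio. For Mir202, the 5p arm had 23.2 RPM in the WT and 17.6 RPM in the KO, and the 3p arm 9.16 and 40.3 RPM. Mir674 gave 6.40 and 52.2 RPM of miR-674-3p (8.16-fold), while its 5p arm had a log2 ratio of -0.18. In Mir34b the 5p arm had 2.71 and 2.01 RPM and the 3p arm 9.65 and 52.9 RPM. The related miR-34c-3p went from 25 reads to 990 (0.590 and 21.0 RPM, 35.5-fold, interval 23.9 to 55.2). The gene Mir34c as a whole was lower in the KO, with a log2 ratio of -0.66. The Mir34 and Mir449 family summed to 240 RPM in the WT and 197 RPM in the KO. The opposite order was seen in Mirlet7d, whose 5p arm had 131 and 347 RPM and whose 3p arm had 431 and 187 RPM, and in Mir370, with 1.89 and 9.25 RPM for 5p and 524 and 273 RPM for 3p. A level of a miRNA gene is thus a sum of arms that need not move together.

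**Figure D3:**
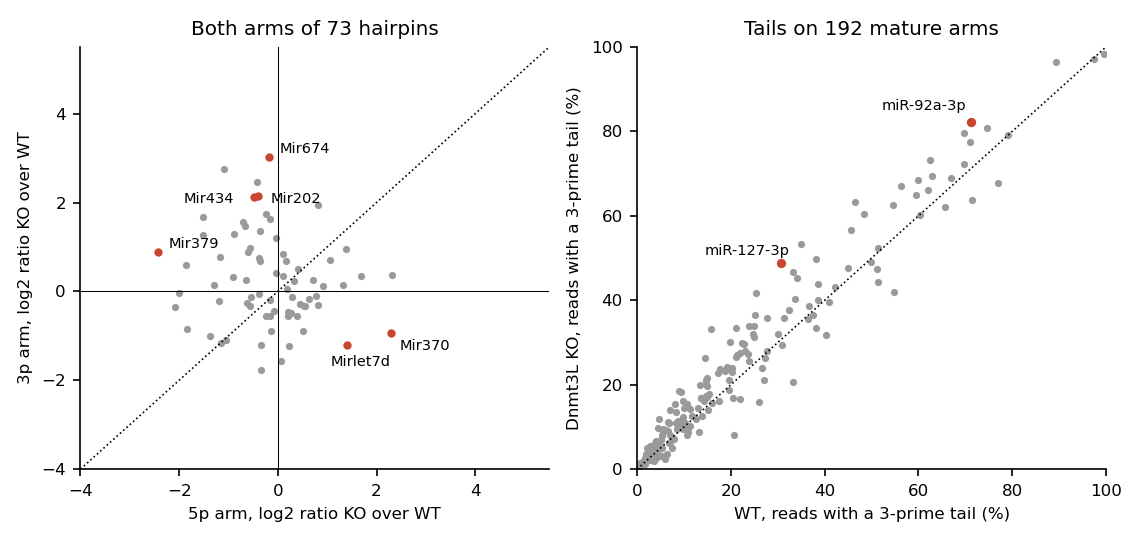
Left, log2 ratio KO over WT of the 5p arm (x axis) and the 3p arm (y axis) of 73 hairpins, 1 point a hairpin, with equal ratios on the dotted line; right, percent of reads with added 3′ bases on 192 mature arms in the WT (x axis) and KO (y axis), with equal shares on the dotted line. Mir674, Mir202 and Mir434 lie in the upper part and Mirlet7d and Mir370 at the lower right, and 139 of 192 arms lie above the dotted line of the right panel.

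Most mature arms were longer in the KO library and carried more added bases. Reads assigned to arms, with added bases allowed, were 298408 RPM in the WT and 300934 RPM in the KO, although exact reads of miRNA genes had been 0.875-fold. Reads with 1 to 3 bases that the hairpin does not encode were 19.3% of WT arm reads and 26.4% of KO arm reads. Both WT libraries of 10 dpp had 9.67% and 14.7%. Tails of A were 8.05% and 11.2% of fetal arm reads, and tails of U were 4.19% and 4.89%. Among 192 arms with at least 500 reads in each fetal library, 139 had a larger tailed share in the KO, with a median difference of 1.84 percentage points. Of these 192, 134 were longer on average, and the median difference over all 192 was 0.073 nt. The listed 5′ end was kept by 93.5% and 93.2% of arm reads, so the difference lay at the 3′ end.

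A few abundant miRNAs carried most of this. miR-92a-3p, of the Mir17 cluster, was tailed in 71.1% of its WT reads and 82.2% of its KO reads, which came to 27383 and 40473 RPM. miR-127-3p was tailed in 30.7% and 48.8%. For miR-10b-5p the shift was mainly between lengths: 22-nt reads were 70.4% of its WT reads and 51.3% of its KO reads, and 23-nt reads 15.4% and 27.98%. miR-148b-3p was nearly always tailed, in 89.4% and 96.5% of reads. Tailed arm reads of 24 nt or more that matched no transcript exactly amounted to 38962 RPM in the WT and 58111 RPM in the KO. They are part of the 24-nt excess and of the piRNA-size reads that matched no transcript.

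Other small RNA genes summed to 9822 RPM in the WT and 9322 RPM in the KO, and the lowest ratios were those of mitochondrial tRNAs. Of 197 genes with at least 500 reads, 1 passed the limit, mt-Ts2 as lower (0.508%), and the median log2 ratio was -0.46. With TMM scaling the median was 0.02 and no gene was called. With a fixed limit of log2 2, 2 were higher (1.02%) and 3 lower (1.52%). mt-Ts2, a mitochondrial serine tRNA, had 644 RPM in the WT and 50.2 RPM in the KO (log2 ratio -3.68, limit 3.53). It was past the limit in 2 of 7 alternatives. With TMM scaling its log2 ratio was -3.19 against a limit of 3.77, with reads of 1 gene only the limit was 4.94, and over distinct sequences the log2 ratio was -1.001 against a limit of 2.08. Both WT libraries of 10 dpp had 238 and 207 RPM. The next lowest were also mitochondrial tRNAs, mt-Tv with 68.1 and 13.1 RPM and mt-Tc with 26.2 and 6.10 RPM. mt-Tm, the methionine tRNA, had 272 and 316 RPM, so the tRNAs of this genome did not move as one. The large mitochondrial rRNA, mt-Rnr2, had 123 and 591 RPM (log2 ratio 2.27). One read of 24 nt at the first base of the gene had 23.03 and 250.2 RPM (10.9-fold, interval 10.2 to 11.6) and was 72.1% of the gene's KO reads of 24 to 32 nt.
mt-Ts2, leading read (chrM:11613-11671, plus strand, positions 1 and 10 in capitals): GaaagattgCaagaactgc
mt-Rnr2, leading read (chrM:1094-2675, plus strand): ActaatcctAgccctagccctaca
These reads are of 19 and 24 nt and neither begins with U. The mt-Ts2 read alone had 262 RPM in the WT and 17.3 RPM in the KO.

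None of the nuclear small RNAs was past the limit. The 91 tested small nucleolar RNAs (snoRNAs), guides of RNA modification, had a median log2 ratio of 0.11 and summed to 4031 RPM in the WT and 4849 RPM in the KO. The most abundant was Snord104, with 365 and 479 RPM, and the highest ratio was that of Gm23991 (12.9 and 64.2 RPM). Gm22680 and Gm25789 were the lowest snoRNAs, with 62.7 and 15.8 RPM and 66.2 and 19.2 RPM. Snord50a, whose reads were all found in other annotated copies too, had 5.09 and 19.98 RPM. Rny3, a Y RNA, had 273 and 347 RPM. The 53 tested rRNA genes, many of them 5S copies that share reads, had a median log2 ratio of -1.13, and the 16 small nuclear RNAs of the spliceosome -0.57.

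Reads of piRNA size, 24 to 32 nt, were 421979 RPM in the WT and 458629 RPM in the KO (1.09-fold). Those with no exact match to a transcript accounted for most of the difference, with 263710 and 294997 RPM, and hold the tailed miRNAs described above. Sense reads of transcripts were 71749 and 72589 RPM (1.01-fold). Antisense reads, counted only where a read had no sense match in any gene, were 20650 and 21729 RPM (1.05-fold). Reads found in at least 10 genes, called repeat-like here, were 18318 and 18530 RPM (1.01-fold). U at position 1 was found in 66.2% of WT sense reads and 67.7% of KO sense reads, and in 72.3% and 72.4% of antisense reads. A at position 10 was found in 41.4% and 41.6% of sense reads and 46.3% and 49.5% of repeat-like reads.

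The ping-pong overlap was present in both libraries. Pairs of opposite-strand reads of the same transcript with 5′ ends overlapping by 1 to 20 nt were weighted by the product of both counts. The overlap was 10 nt for 36.96% of this weight in the WT and 39.9% in the KO. The mean of every other length was 3.32% and 3.16%. Abundant pairs weigh most in these shares. Counted over distinct 5′ ends in place of reads, the shares of 10 nt were 6.31% and 6.05%, against a mean of 4.93% and 4.94%. For reads found in 1 gene only, weighted by counts, the shares of 10 nt were 15.9% and 18.0%, against 4.43% and 4.32%. A pair found in 1 gene lay in Noct, the gene of the clock-regulated protein Nocturnin, and is shown as an example. The capitals mark the 10 bases that pair.
Noct, sense read: TAATCGGTCAagaaaaaagccaaaagcggc
Noct, antisense read: TGACCGATTAgctggctggtaatgggctgc
The sense read had 5.22 RPM in the WT and 5.82 RPM in the KO, and its partner 21.5 and 14.1 RPM. The base after the 3′ end, read from the transcript, was U for 25.2% of WT sense reads and 24.5% of KO sense reads. The mean over the 10 bases that follow was 22.6% and 22.3%. A stronger U there is the mark of phased piRNA production, and both libraries had a small excess at that base. It was smaller among sense reads that begin with U: 23.5% against 22.4% in the WT and 23.8% against 21.8% in the KO.

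Abundant sequences were shared by both libraries. Of 9525 piRNA-size WT sequences with at least 100 reads, 9520 were found in the KO. Of 3592 with at least 500 reads over both, the median log2 ratio was 0.02, and 132 were above 2 and 67 below -2. Among 346 such sequences found in 1 gene, Eif4ebp2, an mRNA of a translation repressor, had the lowest ratio, with 17.5 RPM in the WT and 3.92 RPM in the KO for the read printed above. The antisense read of Gm43197 had 19.2 and 4.53 RPM. At the other end, an antisense read of Gm44189 had 0.968 and 9.82 RPM, and an antisense read of Gm7968 had 5.81 and 40.9 RPM.

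Transcripts as wholes were nearer to the WT than single sequences. Of 1154 transcripts with at least 500 sense reads, 1 passed the limit as higher (0.0867%) and 1 as lower (0.0867%). The median log2 ratio was 0.00, and 95% of transcripts lay within 0.88 of 0 on the log2 scale. The limit contains a shift common to most transcripts between the WT libraries of 10 dpp, whose median log2 ratio was 0.88. With TMM scaling, which takes out that shift, it was 1.31, and 9 transcripts were higher and 4 lower.

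The 8 transcripts with most sense reads were all within the limit, some higher and some lower in the KO. D10Wsu102e, whose reads were found in part in 741 other genes, had 3505 RPM in the WT and 4153 RPM in the KO. Its leading read, printed above, had 31.5 and 29.2 RPM. Gm7968 had 2125 and 2228 RPM, Gm35240 1718 and 1668 RPM, Gm48309 990 and 1497 RPM, and Gm42418 1258 and 1170 RPM. Gm42418 overlaps CT010467.1, annotated as a ribosomal RNA gene. In the WT 43.7% of the sense reads of Gm42418 of 18 to 35 nt were of piRNA size, and their most frequent length was 18 nt. Gm42427 had 923 and 1197 RPM, Noct 1140 and 889 RPM, and Gm26905 1176 and 846 RPM. Of the reads of Gm35240, 8.95% were found in no other gene.

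Asb18 was the transcript called higher, with 27.6 RPM in the WT and 133 RPM in the KO (log2 ratio 2.27). Only 1.58% of its reads were found in no other gene, and the rest occurred also in D10Wsu102e and other transcripts, so the excess cannot be assigned to this gene. Over distinct sequences its log2 ratio was 0.31. Adam12, a metalloprotease gene, was next, with 5.40 and 19.4 RPM (log2 ratio 1.84), and 95.7% of its reads were its own. The printed read of Adam12, from the 3′ UTR, had 7 WT reads and 61 KO reads. Gm47646 (3.81 and 13.4 RPM), Gm37900 (45.4 and 143 RPM), Gm40765 (3.80 and 9.89 RPM) and the pseudogene AC148174.2 (5.25 and 13.2 RPM) followed among the highest ratios. Of these, Gm37900 held 4.40% of reads found in no other gene.

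**Figure D4:**
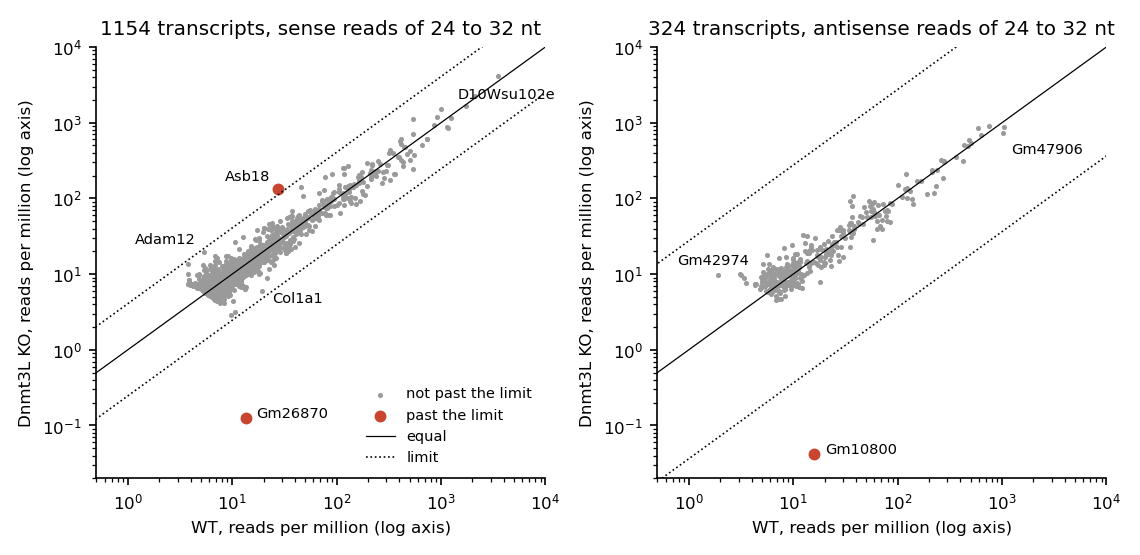
RPM of piRNA-size reads in the WT (x axis, log) and the Dnmt3L KO (y axis, log) for 1154 transcripts in sense and 324 in antisense, 1 point a transcript and 1 library a group; solid lines mark equal levels and dotted lines the limits of 2.02 and 4.78 (log2). Gm26870 (13.4 and 0.127 RPM) and Gm10800 (15.9 and 0.0423 RPM) lie far below the other points.

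Among mRNAs the lowest sense ratios included those of collagens, and Col1a1, Col1a2 and Rprml were, with Gm26870, the 4 transcripts called lower under TMM scaling. Col1a1 had 19.2 RPM in the WT and 6.03 RPM in the KO (log2 ratio -1.67), and Col1a2 10.7 and 3.15 RPM (-1.76). Col3a1, under the minimum of reads, had 8.90 and 2.50 RPM. The collagen and matrix list summed to 63.1 and 25.8 RPM. Few of these reads had the first base usual for piRNAs: 7.64% of the Col1a1 reads in the WT began with U, and 53.4% of its 18 to 35 nt reads were of piRNA size. Rprml, an intronless gene, had 9.68 and 2.86 RPM, and Mbd6, of a methyl-CpG-binding domain protein, 10.2 and 4.36 RPM. Their reads began with U in 99.0% and 90.1% of cases in the WT.

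Transcripts of germ cells and of the piRNA pathway gave few sense reads, with like sums in both libraries. Pou5f1, a pluripotency factor of early germ cells, had 7.92 RPM in the WT and 4.75 RPM in the KO, and 93.9% of its reads began with U in the WT. Sall4 had 5.45 and 3.90 RPM, Nanos2, a regulator of male germ cell fate, 2.64 and 3.43 RPM, and Nanos3 3.12 and 2.43 RPM. The fetal germ cell list summed to 28.4 and 26.1 RPM. Dnmt3a, the methyltransferase that Dnmt3L assists, had 9.85 and 8.85 RPM, and Mov10l1, the helicase that starts piRNA processing, 3.97 and 2.69 RPM. The list of the piRNA pathway and de novo methylation summed to 34.0 and 36.7 RPM. Dnmt3l itself is included with 2.45 and 6.08 RPM, and without it the sum was not higher in the KO. The 13 tested ribosomal protein mRNAs had a median log2 ratio of 0.00, from Rps21 (25.1 and 13.4 RPM) to Rps2 (7.29 and 9.53 RPM). Sums for Sertoli cell (5.16 and 6.01 RPM), Leydig cell (3.94 and 3.05 RPM) and blood transcripts (3.88 and 4.62 RPM) were small, with no gene at the minimum. Imprinted transcripts summed to 87.2 and 83.7 RPM, led by Kcnq1ot1 with 39.88 and 40.03 RPM, and mitochondrial mRNAs to 13.8 and 15.6 RPM.

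The sense reads of protein-coding transcripts were placed in their parts. The 3′ untranslated region (UTR) held 57.0% of them in the WT and 61.9% in the KO, the coding part 28.7% and 26.3%, and the 5′ UTR 14.3% and 11.8%. In RPM, the 3′ UTR had 13957 and 15166 and the coding part 7019 and 6450.

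Antisense reads of most transcripts were close to the WT, with 95% of log2 ratios within 1.13 of 0. Of 324 transcripts with at least 500 antisense reads, 1 passed the limit, as lower (0.309%), and the median log2 ratio was 0.13. The most abundant were CT010467.1, with 1047 RPM in the WT and 872 RPM in the KO, and Gm47906 with 1019 and 735 RPM. CT010467.1 is annotated as a ribosomal RNA gene on the minus strand, so its antisense reads have the plus-strand sequence. In the WT 22.6% of them began with U, and the most frequent length of its 18 to 35 nt antisense reads was 32 nt. Whether they are fragments of ribosomal RNA itself was not tested. In Gm47906 a single read, printed above, made up 86.9% and 85.6% of the antisense reads. Gm26905 had 744 and 901 RPM, D10Wsu102e 626 and 679 RPM and Gm48916 585 and 864 RPM. The highest ratio was that of Gm42974, with 1.89 and 9.58 RPM, and Ccdc7b followed with 3.12 and 10.1 RPM. Gm17233 (18.1 and 7.80 RPM), Gm43197 (58.3 and 27.9 RPM) and 4930544I03Rik (222 and 118 RPM) had the lowest ratios after Gm10800.

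The transcripts called lower, Gm26870 in sense and Gm10800 in antisense, are treated as 1 finding, since they hold the same repeat. Reads counted in sense for Gm26870 were also found in Gm10800. A read with a sense match in any gene was not counted as antisense, so both counts have no read in common. Both are known to hold the repeat unit of the pericentromeric major satellite. Gm26870 (chr9:3000282-3038313) had 13.4 RPM in the WT and 0.127 RPM in the KO (log2 ratio -6.72). Gm10800 (chr2:98666547-98667301) had 15.9 and 0.0423 RPM (-8.55). Of all reads of 18 to 35 nt, 1714 were found in either transcript in the WT and 18 in the KO, or 40.5 and 0.381 RPM (0.00942-fold, interval 0.00557 to 0.0149). At piRNA size the counts were 1573 and 11. Both WT libraries of 10 dpp had 11.98 and 8.86 RPM at that size, so the KO lay below all 3 WT libraries. The WT reads were spread over 287 distinct sequences, against 6 in the KO.

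These satellite reads had the length of piRNAs and a frequent A at position 10, but fewer of them began with U. Their most frequent lengths in the fetal WT were 28 nt (10.9 RPM) and 29 nt (8.78 RPM), while in both WT libraries of 10 dpp they peaked at 27 nt. U stood at position 1 in 51.2% and A at position 10 in 65.5% of the WT reads of piRNA size. The satellite reads came almost wholly from 1 strand. Relative to Gm10800, and with reads that match another gene in sense included, 35.0 RPM were antisense and 0.708 RPM sense in the WT. The same reads were also found in other annotated genes, among them Gm21738, Gm10721 and Gm10718. The genomic copies they come from cannot be told apart from these files. The plot of satellite reads by length shows the difference, which is widest from 27 to 30 nt.

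**Figure D5:**
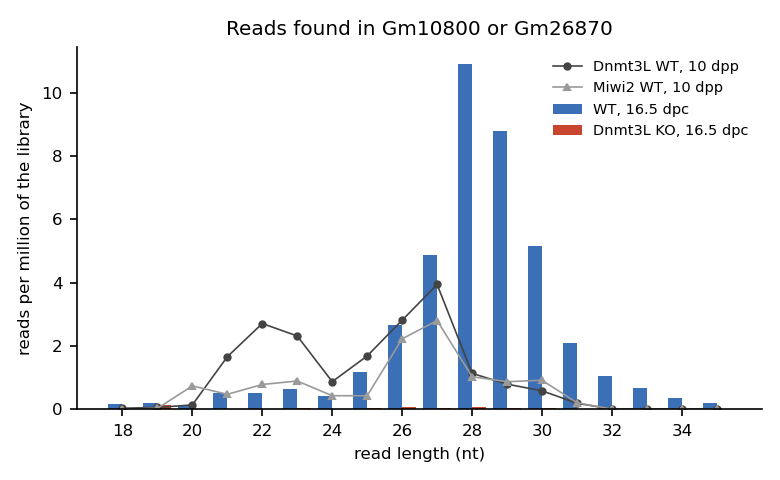
RPM of reads found in Gm10800 or Gm26870 at each read length in nt; bars show the WT and Dnmt3L KO libraries of 16.5 dpc and lines both WT libraries of 10 dpp. The fetal WT peaks at 28 nt with 10.9 RPM, and the KO has at most 0.127 RPM at any length.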

How the data were processed

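Small RNA reads were deposited by the authors as lists of sequences with the count of each, 1 list a library. The submitters' processing notes name the mouse build mm9. Trimming, aligner and filters: not given in the sources used here. Counts were taken as deposited, and 4 of 6 libraries were used. Both other KO libraries were not used here.

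Reads of 18 to 35 nt were matched exactly to the longest GENCODE vM21 transcript of each gene on GRCm38, leaving out reads with N (55450 genes, of which 2202 were miRNA genes and 3906 other small RNA genes), miRNA genes first. Genes that held the same read got equal parts of its count. Reads in at least 10 genes were kept apart as repeat-like. Of the rest, a read with a sense match in any gene counted as sense only. Antisense reads are thus those without any sense match, and not totals of a strand. Counts were scaled to the library total. Mature arms were matched to RefSeq sequences. The minimum was 1000 reads over both libraries compared for miRNA genes and 500 for the others. Intervals are 95% exact (Clopper-Pearson) on the share of the KO in both counts, and a count of 0 was set to 3 counts for a ratio. They cover counting error only.

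Genes named are those past the limit, the highest and lowest ratios, those with most reads, and members of the lists. The members and lists were chosen with earlier results of these data known. The scripts were tested on simulated data. Python 3.11.15, numpy 2.4.6, pandas 2.3.3, scipy 1.17.1, numba 0.67.0, matplotlib 3.10.9, R 4.3.3 and edgeR 4.0.16 (for TMM scaling only) were used. The alternatives were other scalings, minimums, size ranges and limits, reads of 1 gene only, and distinct sequences.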

Additional observations from a re-analysis of the deposited data

How the results depend on the processing

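No called gene or transcript, and not the total of piRNA-size reads, changed direction under the alternatives run, but the balance of calls did: miRNA calls went from 2 higher and 7 lower to 1 higher and 0 lower with scaling to miRNA reads, and antisense calls from 0 higher and 1 lower to 342 higher and 277 lower with no minimum. The median log2 ratio of other small RNA genes went from -0.46 to 0.02 with TMM scaling. Against 9 miRNA genes past the limit, scaling to miRNA reads gave 1, a minimum of 100 reads 17, no minimum 72, reads of 1 gene only 4, distinct sequences 3 and a fixed limit of log2 2 gave 16. Against 1 other small RNA gene, TMM scaling, scaling to miRNA reads, reads of 1 gene only and distinct sequences gave 0, no minimum 7 and the fixed limit 5. Against 2 transcripts in sense, TMM scaling gave 13, scaling to miRNA reads 1, a minimum of 100 reads 4, no minimum 541, reads of 1 gene only 1 and distinct sequences 4. Against 1 in antisense, no minimum gave 619 and the fixed limit 2. Counts with no minimum include genes with few reads. The log2 ratio of piRNA-size reads was 0.12. It was 0.31 with scaling to miRNA reads, 0.13 with scaling to reads of 18 to 35 nt, 0.11 for 25 to 30 nt, 0.077 over distinct sequences and 0.12 without miRNA and other small RNA genes. The last setting took out exact matches only. Tailed miRNA reads of 24 nt or more that matched no transcript stayed in it, with 38962 RPM in the WT and 58111 RPM in the KO. Gm26870 and Gm10800 were past the limit in 8 of 8 alternatives, Mir410 and Mir5126 in 6 of 7, and mt-Ts2 in 2 of 7. For the changes listed, the cause was not tested.

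No paired analysis was possible because each group is 1 library and no test was run. The limit rests on 2 WT libraries of another age, 1 of them of another line, whose longest reads were 100 and 50 nt. Exact matching leaves out reads with mismatches and reads from outside annotated transcripts, which are the unmatched reads. Transposon copies, intergenic piRNA clusters and tRNA fragments were not analysed here.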
